A study of Mus musculus with 8 samples.

Results

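The genes of the cytosolic ribosomal proteins were compared between 2 sorted fractions of mouse esophageal epithelial cells. Members were taken by symbol. They are the rows named Rpl or Rps with a number and at most one of the letters a, l or x, together with Rplp0, Rplp1, Rplp2, Rpsa, Rps27l, Rpl22l1, Rpl7l1 and Rps27rt, and without the Rps6k kinases and names in -ps. The rule found 86 of the 55276 rows of the count table, which were 46 genes of the large subunit, 30 of the small subunit and 10 paralogs or near-identical copies. All libraries came from C57BL6 mice of 14 to 15 weeks with no other genotype or treatment named in the labels. Epithelium was peeled off the muscle and made into a cell suspension, and live integrin beta-1-positive cells were sorted by Cyto-ID, a dye for autophagic vesicles, into a Cyto-ID Low and a Cyto-ID High fraction. Each of 4 animals (Female1, Female2, Male1 and Male2) gave 1 library of each fraction, so there were 4 libraries per fraction and 2 animals per sex. The labels call the cells squamous cells. All 10 keratinocyte markers (among them Krt5, Krt14 and Trp63) were detected in every library, with a summed level of 31749 to 46136 CPM in Low and 132840 to 225200 in High. In the test described below, 4 of the 10 were higher in High (Krt4 and Krt13, keratins of the differentiating layers, Dsp and Cdh1) and 6 lower (Krt5, Krt14, Krt15, Trp63, Itgb1 and Epcam), with log2 fold changes of 3.75 for Krt4 and −3.38 for Krt5 at the ends. CPM is the count relative to the size of the library, here after TMM scaling, which levels the libraries on the genes that differ least.

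Cytosolic ribosomes are built from ribosomal RNA and a fixed set of ribosomal proteins, each present about once in the small or the large subunit, and the genes for these proteins are known for being expressed together at a high level in growing cells. Their mRNAs begin with a C followed by a run of pyrimidines (the terminal oligopyrimidine tract), through which the mTOR pathway controls their translation. In stratified epithelia the basal layer divides and feeds the layers above it. The same genes have left many processed pseudogenes in mammalian genomes, so that short reads from one mRNA can match several places.

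Since most members share stretches of sequence with such copies, the sequences come before the values. The pairs below are stretches of coding sequence from the GENCODE M21 transcripts (GRCm38), printed 5′ to 3′ with mismatches between the members of a pair in capitals. Rps27 (small-subunit protein, chr3:90212522-90213651, minus strand) and its copy Rps27rt (chr9:114982366-114982739, minus strand) had the same letters over all 252 coding bases, of which the leading 90 are shown. Rpl3 (a core protein of the large subunit, chr15:80077791-80091868, minus strand) and the pseudogene Rpl3-ps1 (chrX:13202571-13203780, plus strand) differed at 2 of 1209 coding bases, 1 of them in the stretch shown. Rps4x (small-subunit protein, chrX:102184941-102189394, minus strand) and Rps4l (chr6:148354656-148355598, plus strand, a transcribed processed pseudogene in the annotation) were alike at 80.3% of aligned bases, and Rps27l (chr9:66946086-66949516, plus strand) and Rps27 at 79.1%, so that reads can be assigned within these last pairs. The stretches are bases 1 to 90 of Rps27 and of Rpl3, bases 386 to 475 of Rps4x and bases 36 to 125 of Rps27 in the comparison with Rps27l, each counted from the start codon.
Rps27: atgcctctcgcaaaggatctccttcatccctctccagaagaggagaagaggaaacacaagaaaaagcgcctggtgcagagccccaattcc
Rps27rt: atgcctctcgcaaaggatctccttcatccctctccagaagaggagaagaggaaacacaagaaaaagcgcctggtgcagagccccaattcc
Rpl3: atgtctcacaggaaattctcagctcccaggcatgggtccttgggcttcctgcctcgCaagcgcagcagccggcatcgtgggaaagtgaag
Rpl3-ps1: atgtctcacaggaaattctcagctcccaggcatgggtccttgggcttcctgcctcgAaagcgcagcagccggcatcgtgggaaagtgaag
Rps4x: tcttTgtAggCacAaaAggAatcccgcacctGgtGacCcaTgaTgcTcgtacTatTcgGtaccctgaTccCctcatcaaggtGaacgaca
Rps4l: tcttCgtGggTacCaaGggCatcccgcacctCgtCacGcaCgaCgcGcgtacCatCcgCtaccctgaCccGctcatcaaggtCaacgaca
Rps27 (bases 36 to 125): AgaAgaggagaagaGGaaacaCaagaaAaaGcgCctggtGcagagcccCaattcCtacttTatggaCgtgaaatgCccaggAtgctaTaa
Rps27l: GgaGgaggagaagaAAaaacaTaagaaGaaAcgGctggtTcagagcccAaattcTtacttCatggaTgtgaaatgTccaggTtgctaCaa

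The counts followed this split. Rps27 held 409 to 493 counts in the Low libraries and 134 to 236 in the High libraries, whereas the copy Rps27rt held 16404 to 19855 in Low and 6694 to 11877 in High. Per transcript length, Rps27rt stood at 1460 CPM per kb in Low and Rps27 at 38.5, and the reads of these genes cannot be told apart over the coding sequence. The annotated pseudogene rows were searched by sequence (at least 85% identity over at least 50% of the shorter of row and transcript). With -ps rows that had no such match assigned by name, 1505 rows were matched to members. The 86 member rows together held 2.66% ± 0.09 (SD, n = 4) of all counts in Low, and members and matched pseudogene rows together held 8.36% ± 0.27. For 62 of the 86 members the gene's own row held less than 50% of the counts matched to it, and for 27 less than 10%, down to 0.866% for Rpl23a. Across the 76 subunit genes the level per kb and the share of counts on the gene's own row had a Spearman rho of 0.85, a description in which both measures contain the gene's own count. Exons of 38 members also overlap those of another annotated gene, often a small nucleolar RNA in the same transcript. The level on a single row is therefore uncertain, and comparisons between fractions are given for the rows as deposited and, where it changed the call of a gene described, with the matched pseudogene rows added.

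**Figure D1:**
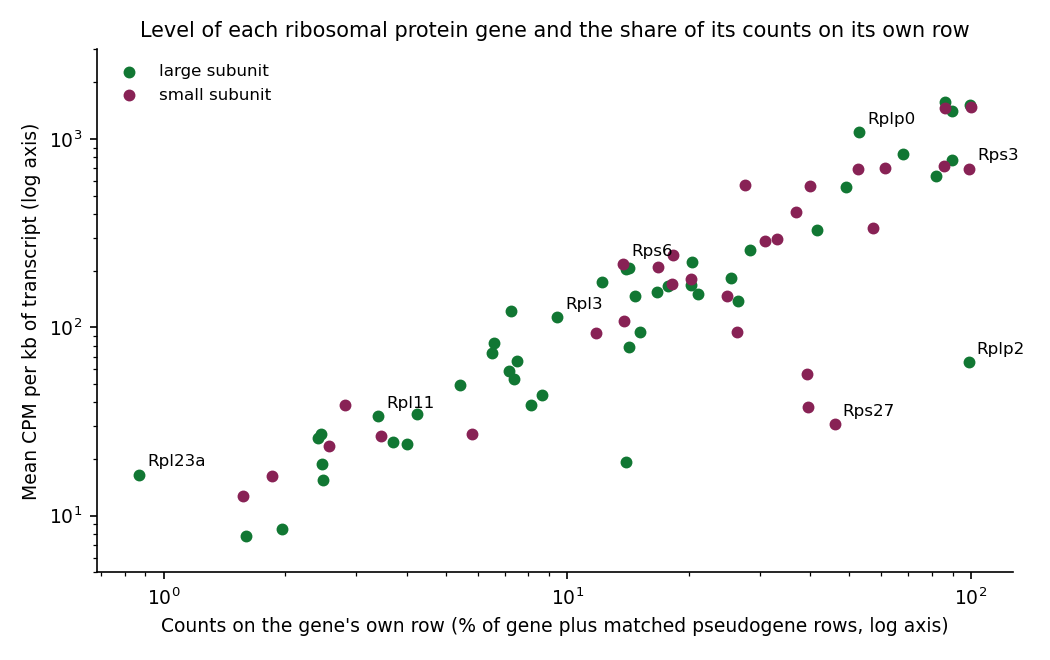
Each point is 1 of 76 ribosomal protein genes of the large or small subunit. The x axis gives the percent of its counts, over the gene and its matched pseudogene rows, that lie on its own row, and the y axis the mean of both fractions in TMM-scaled CPM per kb of transcript, both on log axes. Genes with a few percent of counts on their own row, such as Rpl23a and Rpl11, sit near the bottom, and genes with most of their counts on it, such as Rps3, near the top. Rplp2 and Rps27 are exceptions to the right.

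As a family the ribosomal proteins took a smaller share of the Cyto-ID High libraries. The summed share of all counts was 2.64, 2.65, 2.79 and 2.57% in the Low libraries of Female1, Female2, Male1 and Male2 (the order used throughout) and 1.78, 1.32, 1.54 and 1.32% in their High libraries. Every High library lay below every Low library, and the mean was 1.79-fold lower in High (1.49% ± 0.22 against 2.66% ± 0.09, SD, n = 4). The large-subunit genes went from 1.41% ± 0.05 to 0.805% ± 0.088 of counts and the small-subunit genes from 1.13% ± 0.06 to 0.619% ± 0.118, both without overlap between the fractions. Members with their matched pseudogene rows went from 8.11, 8.29, 8.75 and 8.30% in Low to 5.66, 4.17, 4.94 and 3.99% in High, 1.78-fold lower, so the size of the difference was alike with either way of counting. Shares of a whole depend on its other parts. Krt4 and Krt13 took 0.858 to 2.53% of Low and 10.8 to 14.0% of High counts, and with these 2 genes left out of the total the member share was 1.60-fold lower in High. In bulk RNA, fewer cells of a type and less RNA per cell cannot be told apart.

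**Figure D2:**
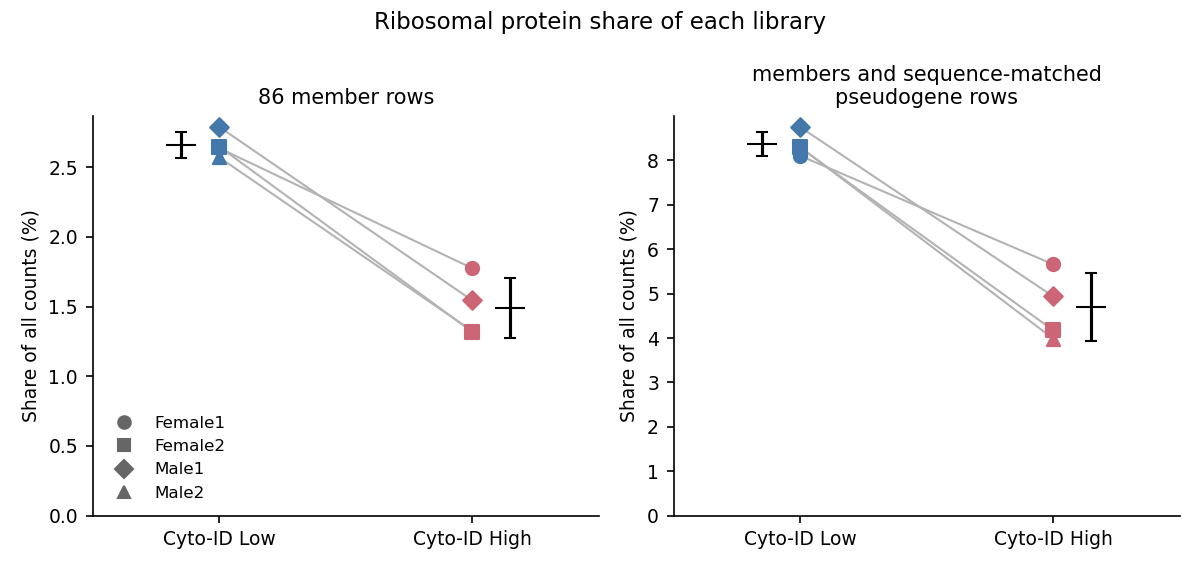
The y axes give the percent of all counts in a library, for the 86 member rows (left) and for members with their matched pseudogene rows (right). Symbols are animals, grey lines join the 2 libraries of an animal, and the black marks are the mean and SD of 4 libraries. Each animal's High library lies below all Low libraries, at 1.32 to 1.78% against 2.57 to 2.79% in the left panel.

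With edgeR's quasi-likelihood test (TMM scaling, sex as covariate, Benjamini-Hochberg adjustment over all 17344 genes tested, threshold 0.05), 20 of the 85 members tested fell in High and 1, Rps4l, rose. Rpl3l, made mainly in striated muscle, was left out of the test for its low counts (0 to 9 per library). Of all genes tested, 25.3% fell and 23.4% rose, so the 23.5% of members that fell is near the background, while the 1.18% that rose lies below it. The fitted log2 fold change, High over Low, was below 0 for 78 of the 85 members, with a median of −0.32 against −0.09 for all genes tested. No member was fitted at a 2-fold change or more. Among the 76 subunit genes tested the SD of the log2 fold changes was 0.19, close to their median standard error of 0.17, whereas over all genes tested the SD was 1.23 with a median standard error of 0.21.

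The animals gave like values. The median difference of the members in log2 CPM, High minus Low, was −0.24 and −0.31 in the females and −0.48 and −0.20 in the males (1 and 2), and that of all genes tested lay between −0.09 and −0.07. In all 4 animals 50 members were lower in High, which is 58.8% of those tested against 34.4% of all genes, and 1 member was higher, where 29.8% of all genes were. The CPM of the fractions did not overlap for 22 members that were lower in High (25.9%, against 24.9% of all genes) and for 1 that was higher (against 23.6%). With the animal as a block, which uses the pairing of the fractions within an animal, 36 members fell (42.4%) and 1 rose, beside 28.5% and 25.4% of all genes. The count of 20 rested on few libraries. Leaving out Low Male1 gave 9 members lower (10.6%, against 20.6% of all genes in that fit), leaving out High Female2 gave 10 (11.8% against 23%) and leaving out High Male1 gave 11 (12.9% against 21.5%), each share below that of all genes.

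How many members were called depended on the scaling. Between the scalings below the median of all genes moved by more than 0.1 on the log2 scale, so changes are best read relative to it. By total counts only, the median of all genes was −0.64 and that of the members −0.88, and 72 of 85 members (84.7%) fell and none rose, where 49.1% of all genes fell and 12.6% rose. Without adjustment, 1 member was higher and 77 were lower at p under 0.05 in that fit. Scaled by the summed counts of the members themselves, the median of all genes was 0.19 and that of the members −0.04. This scaling by itself brings the members close to no change. There Rps4l rose and no member fell in edgeR, the tool used for this scaling, while 16.8% of all genes fell and 30.7% rose, and at an unadjusted p under 0.05 there were 2 members higher and 1 lower. Relative to the family, then, Rps4l was the sole member with a called difference, in either direction.

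**Figure D3:**
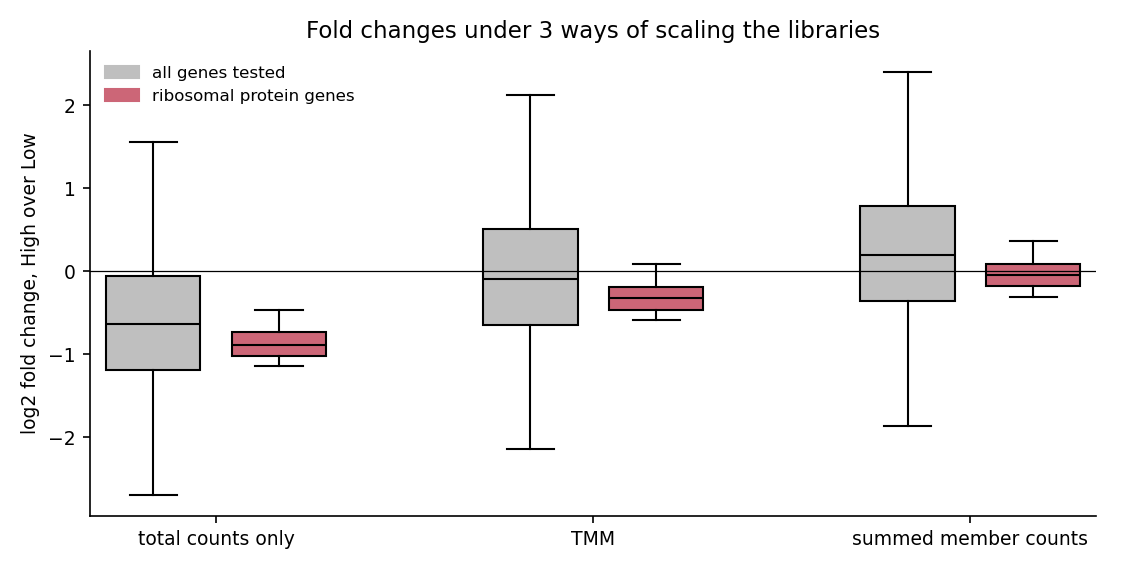
Box plots of the fitted log2 fold change, High over Low, for all 17344 genes tested (grey) and for the 85 ribosomal protein genes (red) under 3 scalings of the libraries. The centre line is the median, boxes span the quartiles and whiskers the 5th to the 95th percentile. The member median lies below the all-gene median under each scaling, at −0.88 against −0.64, −0.32 against −0.09 and −0.04 against 0.19, and the members' boxes are narrower. A scaling moves all genes by about the same amount, so the 3 gaps are not separate findings.

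**Figure D4:**
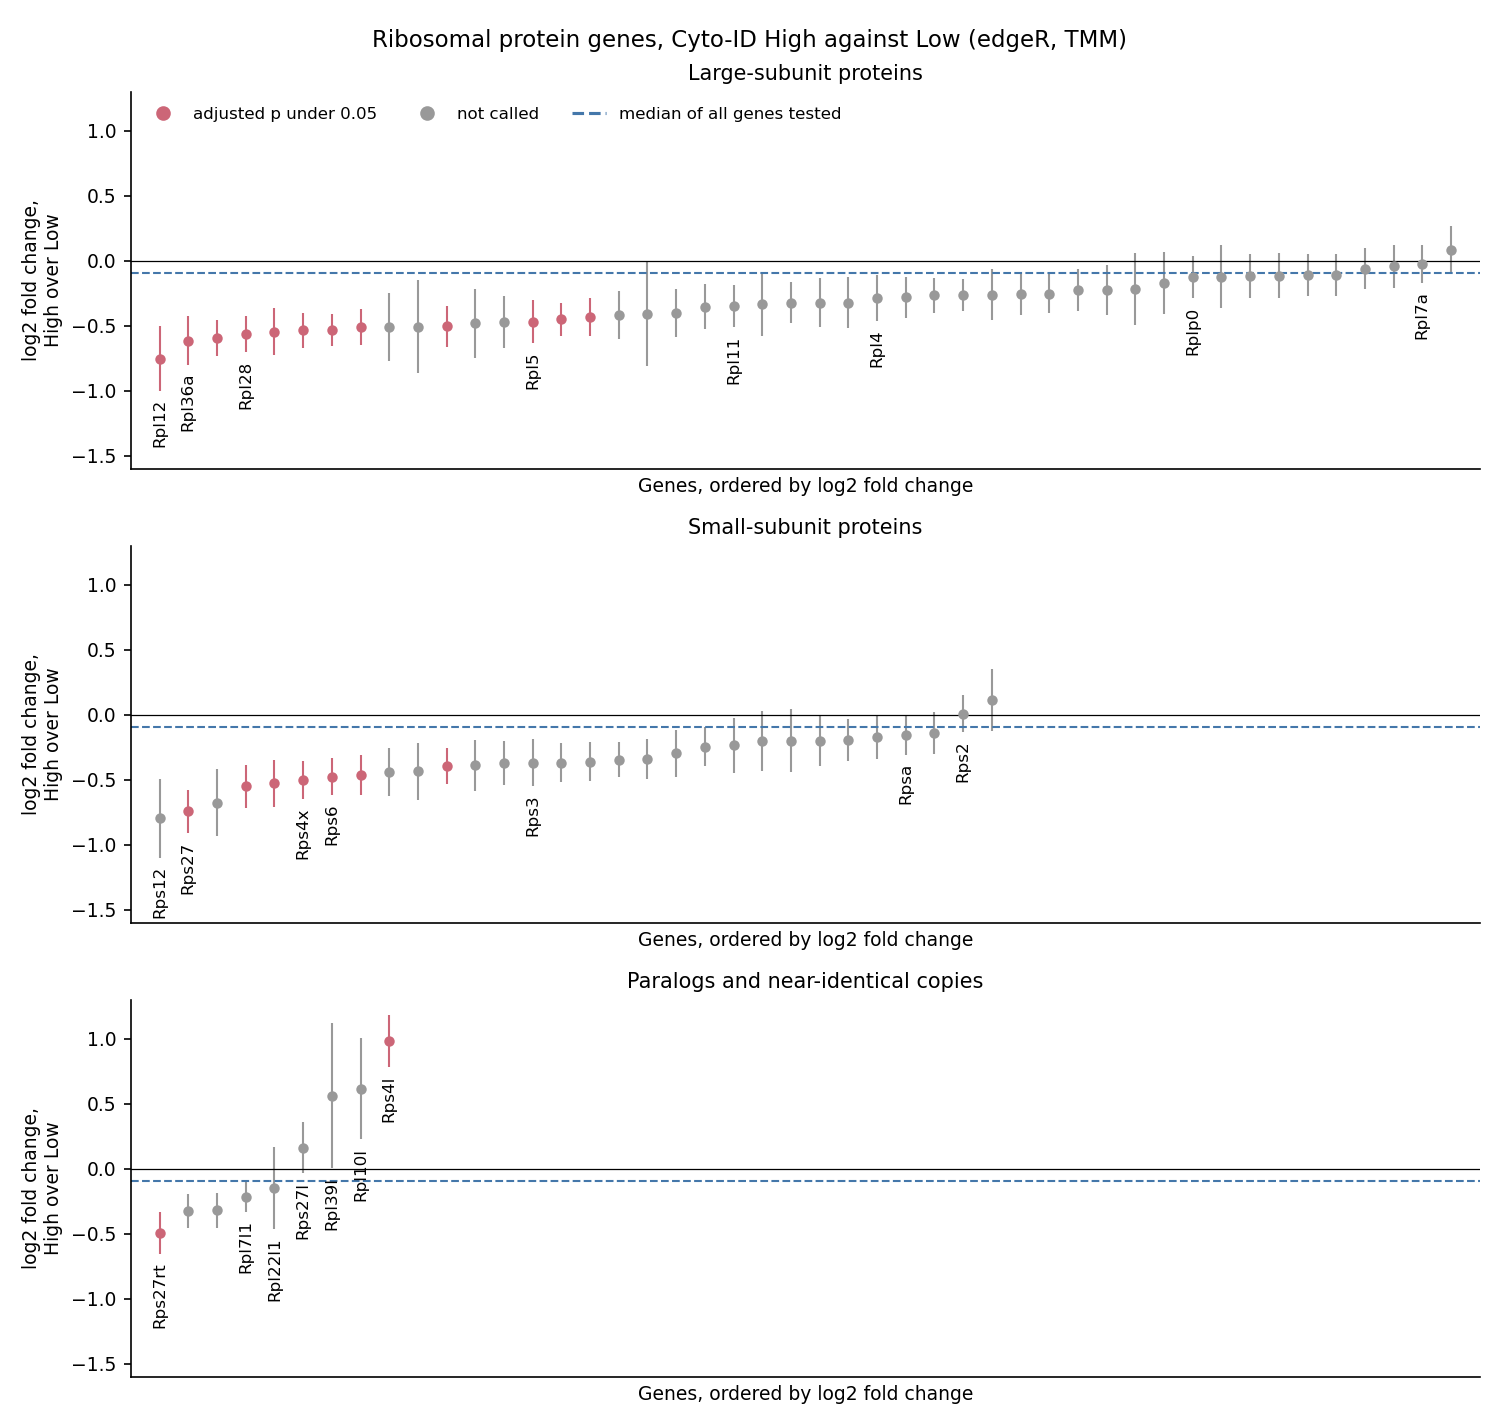
Fitted log2 fold change (High over Low, TMM scaling, edgeR) with its standard error for each of the 85 members tested, by subunit and ordered by value along the x axis, with a few members named. Red points are members with an adjusted p under 0.05 and the dashed line is the median of all genes tested. 78 of the 85 points lie below 0, and Rps4l, at 0.98, stands above the rest.

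Of the 46 large-subunit genes 12 fell (26.1%, near the 25.3% of all genes) and none rose, with a median log2 fold change of −0.32 and a range from −0.75 to 0.09. Rpl12, at the base of the stalk that recruits elongation factors, had 65.4, 40.7, 70.9 and 38.4 CPM in Low and 39.01, 22.7, 35.996 and 30.2 CPM in High. It was lower in High in each animal, but High Female1 lay within the range of Low. The log2 fold change of Rpl12 was −0.75 (SE 0.25, adjusted p = 0.0307), and its call ended without Low Female1, High Female2, Low Male1 or High Male2 (adjusted p 0.0626 to 0.125). With the matched pseudogene rows added it was −0.41 (adjusted p = 0.0737). Rpl36a, which contacts the transfer RNA exit site, stood at 15.01, 9.98, 9.66 and 9.39 CPM in Low and 7.52, 6.83, 6.29 and 7.92 CPM in High. The fractions did not overlap, and Low Female1 was well above the other Low libraries. Its log2 fold change was −0.61 (SE 0.19, adjusted p = 0.0207), and leaving out High Female1, High Female2 or High Male1 ended the call (adjusted p 0.0521 to 0.0669). With pseudogene rows added by name it was −0.23 (adjusted p = 0.196), whereas with the matched pseudogene rows added Rpl36a was still called.

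Rpl13a, a large-subunit protein that is also known as part of a complex that silences inflammatory mRNAs, had 103, 90.7, 104 and 99.6 CPM in Low and 74.3, 63.9, 69.9 and 55.6 CPM in High, again without overlap. Its fold change was −0.59 (SE 0.14, adjusted p = 0.00553) on the log2 scale, and it was −0.40 (adjusted p = 0.143) with matched pseudogene rows added. Rpl28, a protein on the outer face of the large subunit, gave 51.7, 61.6, 76.3 and 70.7 CPM in Low and 34.9, 41.6, 43.01 and 56.8 CPM in High. High Male2 overlapped Low Female1 here, though all 4 animals were lower in High. The log2 fold change of Rpl28 was −0.56 (SE 0.14, adjusted p = 0.00794), and −0.39 (adjusted p = 0.0935) with the pseudogene rows added. The large-subunit genes that fell also included Rpl13 (−0.53, adjusted p = 0.00555) and Rpl23 (−0.45, adjusted p = 0.0144), which were still called with the matched pseudogene rows added (adjusted p = 0.0377 and 0.0266) and without each library in turn. The call on Rpl23 ended with the animal as a block together with a correction for GC content and transcript length (adjusted p = 0.0545) and without both libraries of Male1 or of Male2 (adjusted p = 0.09 and 0.0821). Rpl15 fell as well (−0.43, adjusted p = 0.0322), but not with those rows added (−0.26, adjusted p = 0.165), nor without Low Female2, High Female2, Low Male1, High Male1, Low Male2 or High Male2 (adjusted p 0.0615 to 0.12). RLE size factors, no filter and pseudogene rows added by name also ended the call on Rpl15 (adjusted p = 0.0624, 0.0551 and 0.108).

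Rpl5 and Rpl11 form a particle with 5S ribosomal RNA that, when free of the ribosome, binds and inhibits Mdm2. Rpl5 had 74.03, 51.3, 64.6 and 44.9 CPM in Low and 44.3, 47.3, 41.4 and 36.99 CPM in High, with High Female2 inside the Low range. Its log2 fold change was −0.47 (SE 0.17, adjusted p = 0.04), and the call ended without Low Female1, High Female1, High Female2, Low Male1, High Male1 or High Male2 (adjusted p 0.0685 to 0.103). It also ended with DESeq2, with RLE size factors and with pseudogene rows added by name (adjusted p = 0.0527, 0.0569 and 0.052), and the block with the GC and length correction gave −0.25 (adjusted p = 0.234). Rpl11 had 36.5, 27.1, 36.2 and 25.96 CPM in Low and 25.5, 20.9, 26.2 and 26.5 CPM in High, where Male2 did not share the direction of the other animals. It was not called, at −0.35 (SE 0.16, adjusted p = 0.109).

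The most abundant members per library were mostly not called. Rpl4, which lines the exit tunnel, had 1936, 2414, 2509 and 2619.8 CPM in Low and 1712, 1979.8, 1718 and 2369 CPM in High. Rpl8, close to the peptidyl transferase centre, had 1326, 1378, 1466 and 1568 CPM in Low and 1130.2, 1026, 1070.4 and 1365 CPM in High. In both genes each animal was lower in High, but High Male2, and for Rpl4 also High Female2, lay within the range of Low. Their log2 fold changes were −0.28 (SE 0.18, adjusted p = 0.224) and −0.32 (SE 0.16, adjusted p = 0.12). Per transcript length Rpl8 (1686 CPM per kb) and Rps15 (1651 CPM per kb) were among the highest members in Low.

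The P stalk, the flexible arm on which elongation factors land, is made of Rplp0 and pairs of Rplp1 and Rplp2. Rplp0 stood at 1382, 1397, 1675 and 1741 CPM in Low and 1304.5, 1311, 1278 and 1782 CPM in High. High Male2 was the highest of all 8 libraries, while the other 3 High libraries lay below all Low libraries. Rplp1 had 801, 748, 870.3 and 845 CPM in Low and 763, 654, 656 and 941 CPM in High, with Male2 once more going up, and Rplp2 had 80.1, 63.7, 76.4 and 56.6 CPM in Low and 66.5, 52.4, 59.03 and 49.9 CPM in High, lower in each animal. None of the stalk genes was called, at −0.12 (SE 0.16, adjusted p = 0.585), −0.12 (SE 0.17, adjusted p = 0.614) and −0.28 (SE 0.16, adjusted p = 0.171). Rplp2 was called with the animal as a block and the GC and length correction (−0.35, adjusted p = 0.0439). It was also called with the number in the animal's name as covariate (−0.28, adjusted p = 0.044).

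Of the 30 small-subunit genes 7 fell (23.3%, again near the 25.3% of all genes) and none rose, with a median of −0.36 and a range from −0.80 to 0.11. Rps27 had 15.2, 11.2, 13.8 and 12.9 CPM in Low and 8.64, 7.18, 8.999 and 6.89 CPM in High. The fractions did not overlap, and the log2 fold change was −0.74 (SE 0.17, adjusted p = 0.00446). Rps4x, encoded on the X chromosome, had 569, 598, 719.7 and 695 CPM in Low and 432, 445, 429 and 513 CPM in High, also without overlap. Its log2 fold change was −0.50 (SE 0.15, adjusted p = 0.0174), and leaving out High Male1 moved the adjusted p to 0.0554. Rps6, the best known substrate of the S6 kinases, had 208, 219, 259 and 197 CPM in Low and 167, 147, 157 and 165 CPM in High. Every High library of Rps6 was below every Low library, and its log2 fold change was −0.47 (SE 0.14, adjusted p = 0.0204). Without High Female2, Low Male1 or High Male1 it was not called (adjusted p 0.052 to 0.0602), and with the matched pseudogene rows added it was −0.50 (adjusted p = 0.0144). Those that fell also included Rps7 and Rps23, with log2 fold changes of −0.55 and −0.53, and with the matched pseudogene rows added neither was called (−0.41 for both, adjusted p = 0.0524 and 0.079). The call on Rps7 also ended without Low Male1 or Low Male2 (adjusted p 0.0629 to 0.0857), and that on Rps23 without Low Female1, High Female1, High Female2, Low Male1 or High Male2 (adjusted p 0.059 to 0.115). RLE size factors and pseudogene rows added by name also ended the call on Rps23 (adjusted p = 0.0557 and 0.0533).

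Other small-subunit genes given in full were not called. Rps3, at the entry of the mRNA channel, had 1610.5, 1296, 1590.3 and 1484 CPM in Low and 1409, 1006, 1241 and 984 CPM in High, with High Female1 overlapping Low, and a log2 fold change of −0.37 (SE 0.18, adjusted p = 0.129). Rps3 was called with the animal as a block (adjusted p = 0.0485). Rpsa, first described as a laminin receptor, had 355, 317, 369 and 349 CPM in Low and 343, 265, 299.7 and 339 CPM in High, at −0.16 (SE 0.15, adjusted p = 0.426). Rps27a, which is made as a fusion with ubiquitin, had 25.9, 14.7, 24.01 and 14.6 CPM in Low and 15.8, 14.3, 15.7 and 12.8 CPM in High, at −0.43 (SE 0.22, adjusted p = 0.132). Rps12 had the lowest fitted value of all members, −0.80 (SE 0.30), and missed the threshold with an adjusted p of 0.0521. It was called with the animal as a block (−0.71, adjusted p = 0.00688) and with DESeq2 (−0.71, adjusted p = 0.0414), and with the matched pseudogene rows added it was −0.28 (adjusted p = 0.377). Rps12 was picked out after its value was seen.

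The 64 members that were tested and not called had log2 fold changes from −0.80 (Rps12) to 0.62 (Rpl10l). Closest to 0 were Rps2, at 0.01, and Rpl7a, at −0.02. Adding the matched pseudogene rows to the members left 13 lower and 1 higher of 85, beside 26.8% and 24.2% of all genes, and a median of −0.31. Rpl3, whose own row gave 154, 167, 185 and 172 CPM in Low and 107, 139, 111 and 188 CPM in High and a log2 fold change of −0.32 (SE 0.19, adjusted p = 0.188), was then called, at −0.46 (adjusted p = 0.0326). On its own row it was called without High Male2 (−0.50, adjusted p = 0.0347).

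Among the paralogs and copies, Rps4l was the member that rose. It had 10.9, 14.8, 15.3 and 18.7 CPM in Low and 22.3, 29.04, 24.3 and 42.2 CPM in High, so that every High library lay above every Low library and High Male2 was the highest. The log2 fold change was 0.98 (SE 0.20, adjusted p = 0.00278). It was 1.25 (adjusted p = 6.79e-04) with the family scaling and 0.39 (adjusted p = 0.0605, not called) by total counts. Rps27rt had 507, 504, 617 and 557 CPM in Low and 458, 367, 381 and 344 CPM in High, without overlap, and fell by 0.49 (SE 0.16, adjusted p = 0.029) on the log2 scale. The call on Rps27rt ended without Low Female2, High Female2, Low Male1, High Male1, Low Male2 or High Male2 (adjusted p 0.0573 to 0.0942) and with RLE size factors (adjusted p = 0.0555).

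The other paralogs were not called. Rps27l, a known p53 target, had 27.1, 21.4, 25.04 and 21.8 CPM in Low and 32.3, 23.6, 32.3 and 18.4 CPM in High, and was higher in High in 3 of 4 animals (0.16 (SE 0.20, adjusted p = 0.545)). Rpl22l1 had 56.2, 29.4, 56.5 and 29.3 CPM in Low and 48.5, 34.2, 50.3 and 22.2 CPM in High, and Female1 and Male1 were above Female2 and Male2 in both fractions. Its log2 fold change was −0.14 (SE 0.32, adjusted p = 0.751), beside −0.51 (SE 0.14, adjusted p = 0.0126) for Rpl22, whose Low libraries had 343, 350.2, 372 and 353 CPM and whose High libraries had 273, 254, 252 and 219.9 CPM. Rpl7l1, a relative of Rpl7, had 71.7, 67.9, 77.97 and 76.01 CPM in Low and 62.6, 66.3, 61.1 and 63.02 CPM in High, without overlap but at −0.21 (SE 0.12, adjusted p = 0.165). Rpl10l and Rpl39l, which replace their parents mainly in the testis, were near the detection limit. Rpl10l had 1.91, 1.84, 1.09 and 0.966 CPM in Low and 4.28, 1.22, 2.097 and 1.18 CPM in High (0.62 (SE 0.39, adjusted p = 0.225)), and it was called without High Female2 (0.90, adjusted p = 0.0422). Rpl39l had 0.556, 1.32, 0.683 and 0.453 CPM in Low and 2.1995, 0.653, 1.33 and 0.257 CPM in High (0.56 (SE 0.56, adjusted p = 0.448)). Rpl6l and Rpl32l, annotated as processed pseudogenes, gave −0.32 each (adjusted p = 0.0804 and 0.0674), beside −0.27 and −0.22 for Rpl6 and Rpl32 (adjusted p = 0.129 and 0.287). Rpl32l was called with the animal as a block (adjusted p = 0.037).

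The parents Rpl7, Rpl10 and Rpl39 did not rise. Rpl7 had 572, 709, 765 and 782 CPM in Low and 549, 595, 524 and 697 CPM in High (−0.25 (SE 0.16, adjusted p = 0.239)). Rpl10, which joins the large subunit late in its assembly, had 72.6, 53.3, 92.2 and 59.8 CPM in Low and 42.6, 48.8, 55.02 and 43.5 CPM in High, lower in each animal, with High Male1 inside the Low range. It fell (−0.54 (SE 0.18, adjusted p = 0.0301)), a call that ended without Low Female1, High Female1, Low Male1 or High Male2 (adjusted p 0.07 to 0.0849) and with the matched pseudogene rows added (−0.31, adjusted p = 0.097). Rpl39, in the exit tunnel, had 115, 79.9, 96.4 and 65.7 CPM in Low and 111, 75.97, 86.5 and 46.9 CPM in High (−0.17 (SE 0.24, adjusted p = 0.609)), with Female1 the highest animal in either fraction.

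The ratio of a paralog to its parent within a library needs no scaling. For 7 pairs, log2((paralog count + 0.5)/(parent count + 0.5)) was compared between the fractions with a two-sided exact permutation test over 4 against 4 libraries, whose smallest possible p is 0.0286. The ratio of Rps4l to Rps4x was −5.70, −5.34, −5.55 and −5.22 in Low and −4.27, −3.94, −4.14 and −3.60 in High. That is a difference of 1.46 (SD 0.10 over animals, higher in 4 of 4) without overlap, and p was the smallest possible (exact permutation p = 0.0286, adjusted over 7 pairs 0.1). Rps27l to Rps27 gave 0.83, 0.93, 0.86 and 0.75 in Low and 1.90, 1.72, 1.84 and 1.41 in High, a difference of 0.87 (SD 0.18) with no overlap and the same exact permutation p (0.0286, adjusted 0.1). With 7 pairs and 4 libraries per fraction, neither passed the threshold after adjustment. Since Rps27 counts are shared with Rps27rt, the ratio to Rps27 covers only the reads given to that row. The other pairs overlapped between the fractions. Their differences were 0.98 for Rpl10l to Rpl10, 0.49 for Rpl39l to Rpl39, 0.37 for Rpl22l1 to Rpl22, 0.25 for Rps27rt to Rps27 and 0.04 for Rpl7l1 to Rpl7, with adjusted exact permutation p from 0.25 to 0.714. Rpl3l, with at most 9 counts, was not tested, and the processed pseudogenes Rpl6l and Rpl32l were not among the pairs.

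**Figure D5:**
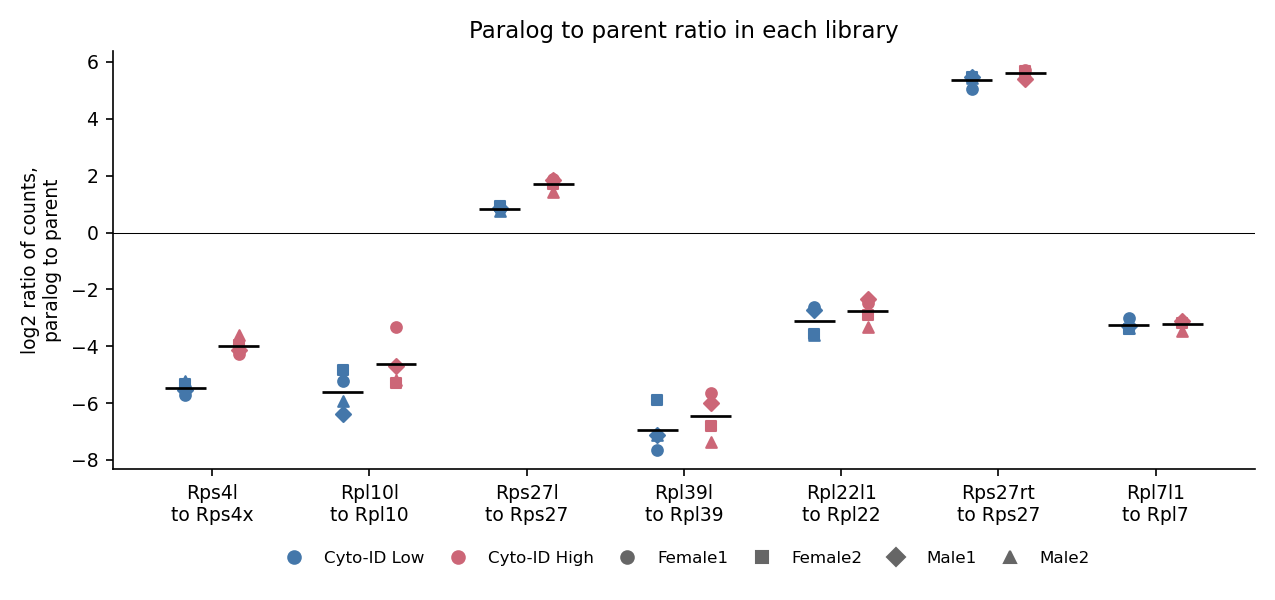
The y axis is the log2 ratio of counts, paralog to parent, in each library. Blue points are Cyto-ID Low, red points Cyto-ID High, symbols are animals and black lines are means of 4 libraries. For Rps4l to Rps4x and Rps27l to Rps27 all High libraries lie above all Low libraries, by 1.46 and 0.87 on average.

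Promoter letters were searched in the members. RefSeq promoter windows (GRCm38.p6, 250 bases before to 50 after an annotated start) were at hand for 64 of the 86 members, with 76 starts. A C followed by at least 4 pyrimidines lay exactly at the start in 15 of 76 member windows (19.7%) and in 2.51% of all 32851 windows. Within 10 bases of the start it lay in 43 of 76 member windows (56.6%) and in 30.7% of all windows. The letters CCGGAAG, on either strand, were in 34.2% of member windows and 8.86% of all, and CTTTCC, on either strand, in 50.0% and 26.6%. TATAAA, on either strand, was in 10.5% and 13.6%. CTTTCC can overlap the pyrimidine tract. The 4 windows below run from 30 bases before the start to 30 bases from it on, on the gene's own strand. The run of pyrimidines at the start is in capitals. They were chosen from named members that fell and have the tract exactly at the start. Rpl10, Rpl12, Rpl13a, Rpl22, Rpl36a and Rps4x also fell and have no tract there. From the second base of Rps27 on, the windows of Rps27 and Rps27rt share a run of 29 bases, whereas the 30 bases before the start are alike at 6 positions.
Rps27, chr3:90213619-90213678: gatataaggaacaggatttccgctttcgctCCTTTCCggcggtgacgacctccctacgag
Rps27rt, chr9:114982710-114982769: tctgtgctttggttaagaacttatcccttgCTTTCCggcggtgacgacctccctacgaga
Rps6, chr4:86857338-86857397: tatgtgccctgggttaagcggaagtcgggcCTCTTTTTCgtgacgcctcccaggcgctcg
Rpl28, chr7:4792935-4792994: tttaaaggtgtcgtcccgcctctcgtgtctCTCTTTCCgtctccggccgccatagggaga
All 15 genes with a tract exactly at a start were tested, and 6 of them fell, where 25.3% of all genes fell. Their median log2 fold change was −0.41, with a range from −0.74 to −0.06. Of the 48 tested genes with windows but no tract exactly at a start, 12 fell and the median was −0.29. This split rests on the annotated base, since 41 of the 64 genes have a tract within 10 bases of a start. These are descriptions, and the difference between them was not tested.

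Calls in other genes of translation, in both directions, depended on the scaling. Of 30 initiation factors 8 rose and 3 fell (median log2 fold change 0.07), of 10 elongation and termination factors 2 rose and none fell (0.11), and of 15 tested regulators of mRNAs with pyrimidine tracts 6 rose and none fell (0.25). Of all genes tested, 23.4% rose and 25.3% fell. By total counts 1 initiation factor rose and 20 fell (median −0.52), and 1 elongation or termination factor rose and 7 fell (−0.46), where 12.6% of all genes rose and 49.1% fell. Eif4b, which stimulates the helicase Eif4a and is itself encoded by an mRNA of this kind, had 616, 875, 763 and 826 CPM in Low and 269, 359, 313 and 422 CPM in High. That is a fall without overlap, by 1.18 (SE 0.19, adjusted p = 6.65e-04) on the log2 scale, larger in size than the fitted change of any subunit gene. Eif4a2 (−0.78) and Eif3e (−0.50) fell as well. Eif4g1, the scaffold of cap-dependent initiation, rose from 472, 446, 449 and 478 CPM in Low to 655, 940.4, 822 and 1141 CPM in High, 0.94 (SE 0.19, adjusted p = 0.00227). Eif6, which keeps large subunits from joining small ones (0.92), Eif3g (0.75), Eif5a (0.89) and Gspt1 (0.50) also rose, though Eif3g and Eif6 were not called by total counts (adjusted p = 0.234 and 0.0655) and Gspt1 changed sign there (−0.09). The call on Eif3e ended without High Male1 or High Male2 (adjusted p 0.0541 to 0.0547), and that on Gspt1 without Low Female1, High Female2, Low Male1 or High Male2 (adjusted p 0.0521 to 0.0988) or with no filter (adjusted p = 0.076). With the animal as a block and the GC and length correction Eif3e was −0.28 (adjusted p = 0.117). With the scaling by member counts neither Eif3e nor Eif4a2 was called (adjusted p = 0.342 and 0.0744).

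Among the regulators, Rps6kb2, a kinase of Rps6, had the largest rise, from 25.1, 15.6, 21.7 and 19.2 CPM in Low to 63.6, 76.5, 73.1 and 110.2 CPM in High, 1.97 (SE 0.21, adjusted p = 5.18e-05). Its exons overlap those of Coro1b and Ptprcap, genes on the other strand, and whether counting used the strand is not given in the sources used here. Exons of Eif4a2, Eif6, Gspt1, Grwd1, Tsr2 and Cdkn1a overlap other genes as well. Eif4ebp1, a repressor of cap-dependent translation that mTOR inactivates, rose from 21.9, 24.3, 17.6 and 20.4 CPM in Low to 37.9, 46.2, 31.5 and 49.4 CPM in High, 0.98 (SE 0.17, adjusted p = 0.00103). Larp4b, which binds the poly(A)-binding protein, rose by 0.89, but was not called by total counts (0.32, adjusted p = 0.0575). Larp1, the main binder of the pyrimidine tract, was not called (0.22 (SE 0.17, adjusted p = 0.332)), nor were Mtor (0.20 (SE 0.14, adjusted p = 0.268)) and Rptor (0.25 (SE 0.15, adjusted p = 0.203)). By total counts 2 of the 15 rose and 7 fell, where 12.6% of all genes rose and 49.1% fell.

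In the list of ribosomal protein genes outside the naming rule and their companions, none of the 10 genes rose and 3 fell, with a median of −0.31, where 25.3% of all genes fell. By total counts 9 fell and none rose (median −0.87), and with the scaling by member counts 1 fell and 1 rose (median −0.03). Npm1, a nucleolar chaperone of ribosome assembly, fell from 268, 275, 293 and 266 CPM in Low to 166, 181, 157 and 124 CPM in High, −0.82 (SE 0.15, adjusted p = 0.00151). Tpt1 (−0.40) and Rps3a1, a small-subunit protein whose symbol the rule does not take (−0.37), fell too. The call on Tpt1 ended without High Female1, High Female2, Low Male1 or High Male1 (adjusted p 0.0657 to 0.108), and that on Rps3a1 without High Female1, Low Female2, High Female2, Low Male1, High Male1, Low Male2 or High Male2 (adjusted p 0.0544 to 0.123). Neither was called with RLE size factors (adjusted p = 0.0643 and 0.0804) or with no filter (0.119 and 0.128), and Rps3a1 was not called with the block and the GC and length correction (adjusted p = 0.0997). Of 11 tested chaperones that carry ribosomal proteins 4 fell and none rose (median −0.19), where 23.4% of all genes rose. By total counts 9 chaperones fell and none rose (median −0.76), and with the scaling by member counts 1 fell and 3 rose (median 0.095). By total counts 49.1% of all genes fell and 12.6% rose, and with the scaling by member counts 16.8% fell and 30.7% rose. Grwd1, the chaperone of Rpl3, fell from 47.8, 29.3, 47.4 and 41.1 CPM in Low to 21.6, 18.1, 18.5 and 24.7 CPM in High, −0.99 (SE 0.18, adjusted p = 0.00142). Zfp622 and Tsr2 fell by 0.53 and 0.52 on the log2 scale, Tsr2 not without High Female1 or High Male1 (adjusted p 0.0575 to 0.0674), nor with the block and that correction (−0.37, adjusted p = 0.0997).

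All 4 genes of the Mdm2 axis were called, 2 higher and 2 lower, where 23.4% of all genes rose and 25.3% fell. By total counts 1 rose and 2 fell, where 12.6% of all genes rose and 49.1% fell. With the scaling by member counts 2 rose and 1 fell, where 30.7% of all genes rose and 16.8% fell. Trp53, the p53 gene, fell from 88.6, 94.3, 105 and 103 CPM in Low to 29.6, 36.6, 32.4 and 54.3 CPM in High, −1.37 (SE 0.18, adjusted p = 1.76e-04). Its target Cdkn1a, an inhibitor of cell cycle kinases, rose from 314, 182, 256 and 395 CPM in Low to 976, 1193, 1069 and 1749 CPM in High, 2.12 (SE 0.26, adjusted p = 1.15e-04). For both the fractions were far apart. Mdm4 fell (−0.54 (SE 0.16, adjusted p = 0.0187)) and Mdm2 rose (0.51 (SE 0.18, adjusted p = 0.0343)). The call on Mdm4 ended without High Female1 or Low Male1 (adjusted p 0.0547 to 0.057) and with the block and the GC and length correction (−0.33, adjusted p = 0.0935) or the scaling by member counts (−0.25, adjusted p = 0.298), and that on Mdm2 without High Female1, High Female2, Low Male1 or High Male2 (adjusted p 0.0663 to 0.0836), and Mdm2 changed sign by total counts (−0.05, adjusted p = 0.781).

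The genes of the mitochondrial ribosome, which is a separate particle, gave other values on the same fit. Of 77 tested, 23 rose (29.9%) and 10 fell (13%), with a median log2 fold change of 0.19 against −0.32 for the cytosolic members, where 23.4% of all genes rose and 25.3% fell. By total counts 3 rose and 38 fell (median −0.40), where 49.1% of all genes fell, and with the scaling by member counts 40 rose and 1 fell (median 0.46), where 30.7% of all genes rose. No test compared the 2 sets.

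No difference between the sexes in the response was called. The interaction of sex and fraction had an adjusted p under 0.05 for 0 of 17344 genes in edgeR (0%, the only tool run for it), and at an unadjusted p under 0.05 for 19 genes, none of them a member. The fit with the animal as a block also called 0, with 38 at an unadjusted p under 0.05 and again no member.

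Members were also compared between the animals numbered 1 and those numbered 2 within a fraction. In Low, 54 of 85 members (63.5%) were higher in both Female1 and Male1 than in both Female2 and Male2, and 1 was lower (1.18%), where 25.2% and 24.2% of all genes were. In High the counts were 39 (45.9%) and 12 (14.1%), beside 23.9% and 36.7% of all genes. Rps12 is an example, with 40.6, 16.9, 38.2 and 19.4 CPM in Low and 19.02, 12.7, 18.95 and 15.7 CPM in High. The labels do not say what the number stands for. With it as a covariate 40 members fell and 1 rose, beside 28.9% and 25.6% of all genes, and the median was −0.32.

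Library totals were 26285150 to 28599954 counts in Low and 27486049 to 29301054 in High. Summed levels of the other markers were 51.6 to 85.98 CPM in Low and 6.22 to 82.3 in High for 10 leukocyte genes, 317 to 501 and 38.7 to 471 for 8 fibroblast genes, 12.6 to 24.4 and 2.62 to 29.1 for 7 endothelial genes, and 24.7 to 46.9 and 1.70 to 62.6 for 10 muscle genes. High Male2 was the lowest library in each of these 4 sums, and 1 of the tested genes of these lists fell while none rose. No gene of these lists was at 0 in all libraries of a fraction, while 3 leukocyte, 1 endothelial and 3 muscle genes were at 0 in at least 1 library. Without High Male2, 14 members fell (16.5%, against 23.8% of all genes in that fit) and 1 rose (1.18% against 20.5%). Dissociation stress genes summed to 16600 to 20768 CPM in Low and 11443 to 25145 in High, with 1 of 12 higher and 2 lower. Their part in the members' differences was not tested.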

How the data were processed

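RNA of sorted cells was sequenced, and the authors deposited 1 table of whole-number counts per gene symbol for 8 libraries, with no normalization. That the values are counts follows from the table itself, whose totals are 26285150 to 29301054 per library. Reads were processed with STAR 2.7.3 and DESeq2 on GRCm38, per the submitters' processing notes. The counting tool, its use of strand and of reads with several matches, and the annotation are not given in the sources used here, and this bears on genes with many copies. Gene models were taken from GENCODE M21 and promoter windows from RefSeq (GRCm38.p6). Every table column matched 1 library, no other column was present, and every row had a name.

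The count model was edgeR 4.0.16 (R 4.3.3) on the 17344 genes that filterByExpr retained, with TMM scaling (trimmed mean of M values). Cyto-ID High was tested against Low by glmQLFit and glmQLFTest with sex as covariate over all 8 libraries, with Benjamini-Hochberg adjustment and a threshold of 0.05. Log2 CPM use a prior count of 2. In simulated counts, 200 genes were given a log2 change of 1.5, and 94.5% were recovered, with 9 false calls among 16953 genes. No member was fitted at so large a change, and far more genes were called in the data. The recovery therefore does not tell how many changes of the members' size would be found. Paralog ratios were compared by exact permutation in Python 3.11.15 (scipy 1.17.1). Pseudogene rows were matched with BLAST 2.17.0, at least 85% identity over at least 50% of the shorter of row and transcript. Of 310 -ps rows 265 had such a match, and the others were assigned by name. The 2 libraries of an animal were taken as a pair from their names. The correlation of their deviations from the fraction means, across genes, was 0.43, 0.32, −0.02 and 0.28 for Female1, Female2, Male1 and Male2.

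The members and gene lists were chosen with earlier results of these data known. Members given with all their values are the 5 called with the largest and the 5 with the smallest log2 fold change at a mean of at least 5 CPM, the 5 most abundant, the stalk proteins, Rpsa, Rps27a, Rps6, Rpl5 and Rpl11, and each paralog with its parent, apart from the processed pseudogenes Rpl6l and Rpl32l. Some members are not reported here by name and enter only the counts, medians and sums. Of the lists, up to 3 called genes per direction are named. Alternatives were other scalings, filters and tools (DESeq2 1.42.0, limma-voom with limma 3.58.1), the animal as a block, also with a correction for GC content and length, pseudogene rows added by name or by sequence, and each library or animal left out. The matching by sequence and the label number as a covariate were added after seeing the data.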

Additional observations from a re-analysis of the deposited data

Results flagged for a closer look

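A gap test on the 90 groups of 4 libraries set 3 values apart from the rest of their group, where chance sets apart about 1 in 20 groups. Rpl36a stood at 15.0 CPM in Low Female1, against 9.39 to 9.98 in the other Low libraries. Rplp0 stood at 1782 CPM in High Male2, against 1278 to 1311 in the other High libraries. The log2 ratio of Rps27rt to Rps27 was 5.05 in Low Female1, against 5.43 to 5.49 in the other Low libraries. No given member moved one way in both female and the other way in both male animals.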

How the results depend on the processing

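The member median stayed below 0 under each of the 27 alternative fits. It moved from −0.32 to −0.88 by total counts and to −0.041 with scaling by the members' own counts, and the other fits moved it by less than its SD over animals, 0.12. The number of members lower in High, 20, became 72 by total counts, 0 with scaling by the members' own counts, 13 with matched pseudogene rows added and 40 with the label number as a covariate. With the replicate block, the pairing of both libraries of an animal, it was 36, and 29 with the block and a correction for GC content and length together. It was 14 with RLE size factors, 23 with no filter, 24 with at least 10 counts in every library, and 20 with DESeq2 and with limma-voom. Over the fits that left out 1 library or both libraries of an animal it ran from 5 to 25. The number higher in High, 1, was 0 by total counts and ran from 1 to 2 over the fits that left out libraries. The fit with matched pseudogene rows added, with 14 calls in all, shared 12 with the 21 of the unaltered rows. The log2 ratio of the summed share, −0.84, moved by less than its SD over animals under every alternative run. The difference in the ratio of Rps4l to Rps4x ran from 1.34 to 1.56 over the fits that left out 1 library. With the 4 animals as pairs in the replicate block, sign flips allow no p below 0.125 and gave adjusted p from 0.292 to 0.75 over the 7 pairs. The block left the interaction at 0 members. Gspt1 and Mdm2 changed sign by total counts, to −0.087 and −0.052. Of 51 genes that the naming rules chose, 13 had the same call throughout. The 9 of them past the threshold are genes of the other lists, and no called member is among them. The cause of these shifts was not tested. Depth limits Rpl3l, Rpl39l and Rpl10l, whose counts were too low for a precise fold change.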
